A study of Mus musculus with 12 samples.

Results

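The Hox genes encode homeodomain transcription factors and lie in 4 clusters in the mouse genome, Hoxa, Hoxb, Hoxc and Hoxd. All 38 Hox genes described here were chosen by symbol among the 41388 genes in the deposited counts, with no filter on expression. The files hold 39 genes with such a symbol, and the other one is not analysed here. They were measured in primary cortical neurons of Swiss Webster mouse embryos taken at embryonic day 16, a culture of post-mitotic neurons with some glia. Neurons received lentivirus at day 5 in vitro, and RNA was harvested at day 10 and depleted of ribosomal RNA.

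The 12 libraries formed 3 groups of 4. The Htt-72Q group carried huntingtin exon 1 with 72 glutamines, a length in the range that causes Huntington disease. The Htt-25Q group carried exon 1 with 25 glutamines, a length in the normal range, and the control vector group carried a vector without huntingtin. In all 3 groups the neurons kept their own Htt genes, and the promoter of the vectors is not given in the labels. Nothing in the labels says that the 4 libraries of a group came from separate animals, so p-values measure the spread between these libraries, which may be technical. The infection label of control vector 2 is worded differently from those of the other 3 controls, and it was placed by its title.

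In the embryo Hox genes give cells their position along the head-to-tail axis. Within a cluster the genes lie in the order of their paralog groups, from group 1, used furthest forward, to group 13, used at the tail end, and all genes of a cluster are read from the same strand. The forebrain, which gives rise to the cortex, forms in front of the Hox domains, and there the clusters are held silent by Polycomb complexes, which mark their chromatin with methylated histone H3. Retinoic acid and the Cdx factors are classical activators, and proteins of the TALE family, such as Meis and Pknox, bind DNA together with Hox proteins.

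On build GRCm38 the 10 Hoxa genes lie on the minus strand of chromosome 6 from 52162511 to 52260880. The 10 Hoxb genes lie on the plus strand of chromosome 11 from 96194316 to 96368256, the 9 Hoxc genes on the plus strand of chromosome 15 from 102921103 to 103036852, and the 9 Hoxd genes on the plus strand of chromosome 2 from 74668310 to 74765142. Promoter sequences from RefSeq (build GRCm38.p6, 250 bases before and 50 after a start given by RefSeq) were at hand for 22 of the 38 genes, in 24 windows. Their median was 14.5 CpG dinucleotides in 300 bases, against 7 over 32851 promoter windows of all genes. By the rule of an observed-over-expected CpG ratio of at least 0.6 and a GC content of at least 50%, 11 of the 24 windows (45.8%) were CpG-rich, against 33.5% of all windows. The letters TATAAA, sought on both strands, stood in 4 of the 24 windows (16.7%) and in 13.6% of all windows.

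Below are 4 of these promoters, shown because they span the responses described in the data: Hoxd8, counted in every Htt-72Q library, Hoxa13, counted in Htt-72Q alone, Hoxa9, high in a single library, and Hoxd4, without a count in any library. Capitals mark CpG dinucleotides, the sites of DNA methylation in mammals, and each sequence is written 5′ to 3′ on the gene's strand.
Hoxd8, chr2:74704365-74704664, plus strand: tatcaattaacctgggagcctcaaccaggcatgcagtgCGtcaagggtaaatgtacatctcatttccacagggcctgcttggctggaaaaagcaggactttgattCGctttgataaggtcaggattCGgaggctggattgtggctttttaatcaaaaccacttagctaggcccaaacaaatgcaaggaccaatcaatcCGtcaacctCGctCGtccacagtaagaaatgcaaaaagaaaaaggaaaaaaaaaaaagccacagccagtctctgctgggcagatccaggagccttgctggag
Hoxa13, chr6:52260831-52261130, minus strand: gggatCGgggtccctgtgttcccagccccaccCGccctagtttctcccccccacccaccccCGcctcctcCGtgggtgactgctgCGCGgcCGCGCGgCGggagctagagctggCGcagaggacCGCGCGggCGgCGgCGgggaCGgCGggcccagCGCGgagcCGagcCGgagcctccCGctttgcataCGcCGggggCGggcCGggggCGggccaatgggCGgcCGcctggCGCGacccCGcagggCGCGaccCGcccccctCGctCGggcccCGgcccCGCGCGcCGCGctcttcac
Hoxa9, chr6:52227321-52227620, minus strand: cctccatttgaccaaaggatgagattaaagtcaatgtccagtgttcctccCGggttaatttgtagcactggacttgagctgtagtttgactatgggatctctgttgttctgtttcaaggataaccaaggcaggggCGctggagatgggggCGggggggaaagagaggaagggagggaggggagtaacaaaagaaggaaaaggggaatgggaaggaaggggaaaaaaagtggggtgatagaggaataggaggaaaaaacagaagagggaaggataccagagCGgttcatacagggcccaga
Hoxd4, chr2:74721728-74722027, plus strand: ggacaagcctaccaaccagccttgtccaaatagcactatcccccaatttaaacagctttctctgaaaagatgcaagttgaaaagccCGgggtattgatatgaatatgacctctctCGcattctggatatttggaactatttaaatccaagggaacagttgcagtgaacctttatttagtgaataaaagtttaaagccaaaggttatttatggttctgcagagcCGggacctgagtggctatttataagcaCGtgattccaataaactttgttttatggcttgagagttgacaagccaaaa
The Hoxa13 window held 45 CpG dinucleotides and a GC content of 81.0%, and those of Hoxd8, Hoxa9 and Hoxd4 held 6, 4 and 4. Low and high CpG content therefore both occurred among genes counted in Htt-72Q. The windows of Hoxa9 and Hoxd4 lie inside the genes as counted here, which start at 52231089 and 74711929.

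Total counts ran from 12.4 M to 20.04 M in the Htt-72Q libraries, from 18.1 M to 27.5 M in Htt-25Q and from 12.7 M to 23.4 M in control vector. Levels are given below as counts or as CPM (counts per 1 M counts) after scaling by the TMM method, which corrects for differences in library composition. Library Htt-72Q 3 stood apart from the other 3 of its group in genes outside the family too. Gapdh was at 20.3 CPM of the library total in Htt-72Q 3 and at 39.3 to 50.2 CPM in Htt-72Q 1, 2 and 4, and the mitochondrial gene mt-Nd2 was at 311 CPM in Htt-72Q 3 and at 88.5 to 164 CPM in the other 3. Htt-25Q and control libraries lay on either side of this divide as well, but not in equal parts. Htt-25Q 3 and control vector 2 and 4 lay on the side of Htt-72Q 1, 2 and 4. Their Gapdh was at 35.4 to 41.6 CPM and their mt-Nd2 at 71.4 to 79.3 CPM. Htt-25Q 1, 2 and 4 and control vector 1 and 3 lay on the side of Htt-72Q 3. Their Gapdh was at 9.16 to 13.1 CPM and their mt-Nd2 at 252 to 376 CPM. The divide was thus partly bound up with the groups. Results that rest on Htt-72Q 3 are given with and without it. The mouse Htt gene did not pass the test in any comparison, and the constructs hold only exon 1, so its level does not check the labels.

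Hox transcripts were near 0 in neurons with Htt-25Q or control vector, and more of them were counted in neurons with Htt-72Q. Over 4 libraries the 38 genes had 984 counts in Htt-72Q, 62 in Htt-25Q and 61 in control vector. Htt-72Q 3 alone gave 527 of the 984, of which 346 were of Hoxa9, and the other 3 Htt-72Q libraries gave 457. A count was found for 23 of the 38 genes in Htt-72Q, for 8 in Htt-25Q and for 12 in control vector, although the Htt-72Q libraries were on average the least deep. Per library the number of genes with a count was 12, 16, 14 and 17 in Htt-72Q 1 to 4, against 3, 3, 5 and 3 in Htt-25Q and 5, 3, 7 and 7 in control vector. No Htt-72Q library overlapped with any other library in this number. Over all genes the number with a count per library overlapped, at 17377 to 21418 in Htt-72Q, 20046 to 21578 in Htt-25Q and 19485 to 20529 in control vector. Counts occurred in Htt-72Q and nowhere else for 11 genes, in Htt-25Q alone for 1 (Hoxb4, a single count) and in control vector alone for 2 (Hoxa4 and Hoxc11, a single count each). For scale, 23 of the 38 Hox genes and 15171 of all 41388 genes had no count outside Htt-72Q. Outside Htt-25Q these numbers were 13 and 15342, and outside control vector 14 and 14894. They include the genes without a count in any library, 12 of them Hox genes. Leaving out each Htt-72Q library in turn left 21 to 23 genes with a count in that group.

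**Figure D1:**
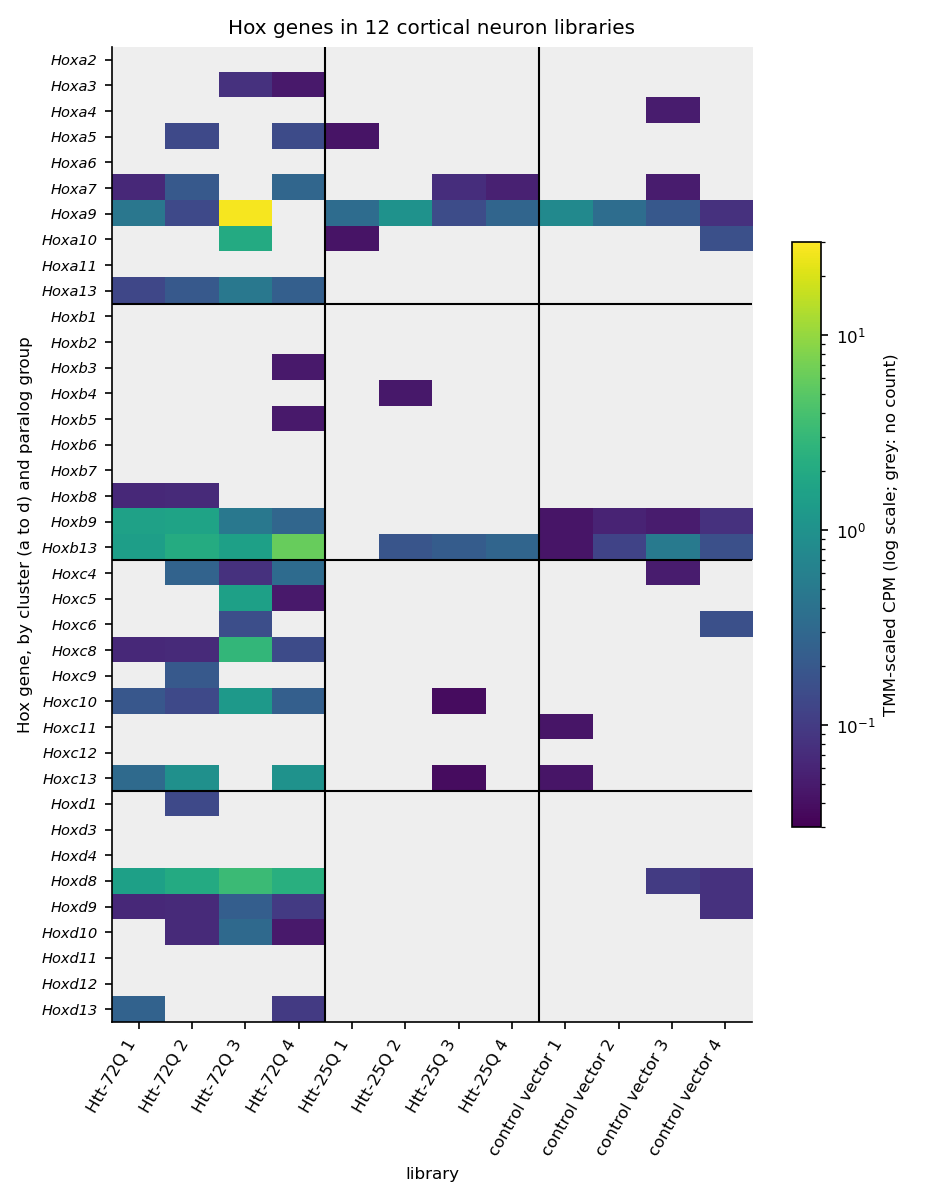
Level of the 38 Hox genes (rows, by cluster and paralog group) in the 12 libraries (columns), as TMM-scaled CPM on a logarithmic colour scale, with grey where a gene had no count. Coloured cells are most frequent in the 4 Htt-72Q columns on the left, where 12 to 17 genes had a count, and Hoxa9 stands out in Htt-72Q 3 at 27.6 CPM.

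A further 12 genes had no count in any of the 12 libraries: Hoxa2, Hoxa6, Hoxa11, Hoxb1, Hoxb2, Hoxb6, Hoxb7, Hoxc12, Hoxd3, Hoxd4, Hoxd11 and Hoxd12. They include the hindbrain genes Hoxa2, Hoxb1 and Hoxb2. Their transcripts were not detectable at this depth. Of the others, 7 of 10 Hoxa, 6 of 10 Hoxb, 8 of 9 Hoxc and 5 of 9 Hoxd genes had a count in some library. Genes with counts thus lay beside genes without any in each of the 4 clusters.

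Counts were concentrated in the middle and tail-end paralog groups. The 7 genes of groups 1 to 3 had 5 counts in Htt-72Q and none in Htt-25Q or control vector. The 15 genes of groups 4 to 8 had 237 counts in Htt-72Q, 5 in Htt-25Q and 8 in control vector. The 16 genes of groups 9 to 13, which pattern the lower trunk, limbs and tail, had 742 counts in Htt-72Q, 57 in Htt-25Q and 53 in control vector. Single genes gave most of these counts in Htt-72Q: Hoxa9 355 and Hoxb13 197 of the 742, and Hoxd8 144 of the 237. Without Htt-72Q 3 the 742 became 316 and the 237 became 137, of which Hoxd8 gave 102. Groups 9 to 13 therefore held 75.4% of Hox counts in Htt-72Q (69.1% without Htt-72Q 3), 91.9% in Htt-25Q and 86.9% in control vector, and the low counts outside Htt-72Q came mainly from Hoxa9 and Hoxb13.

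**Figure D2:**
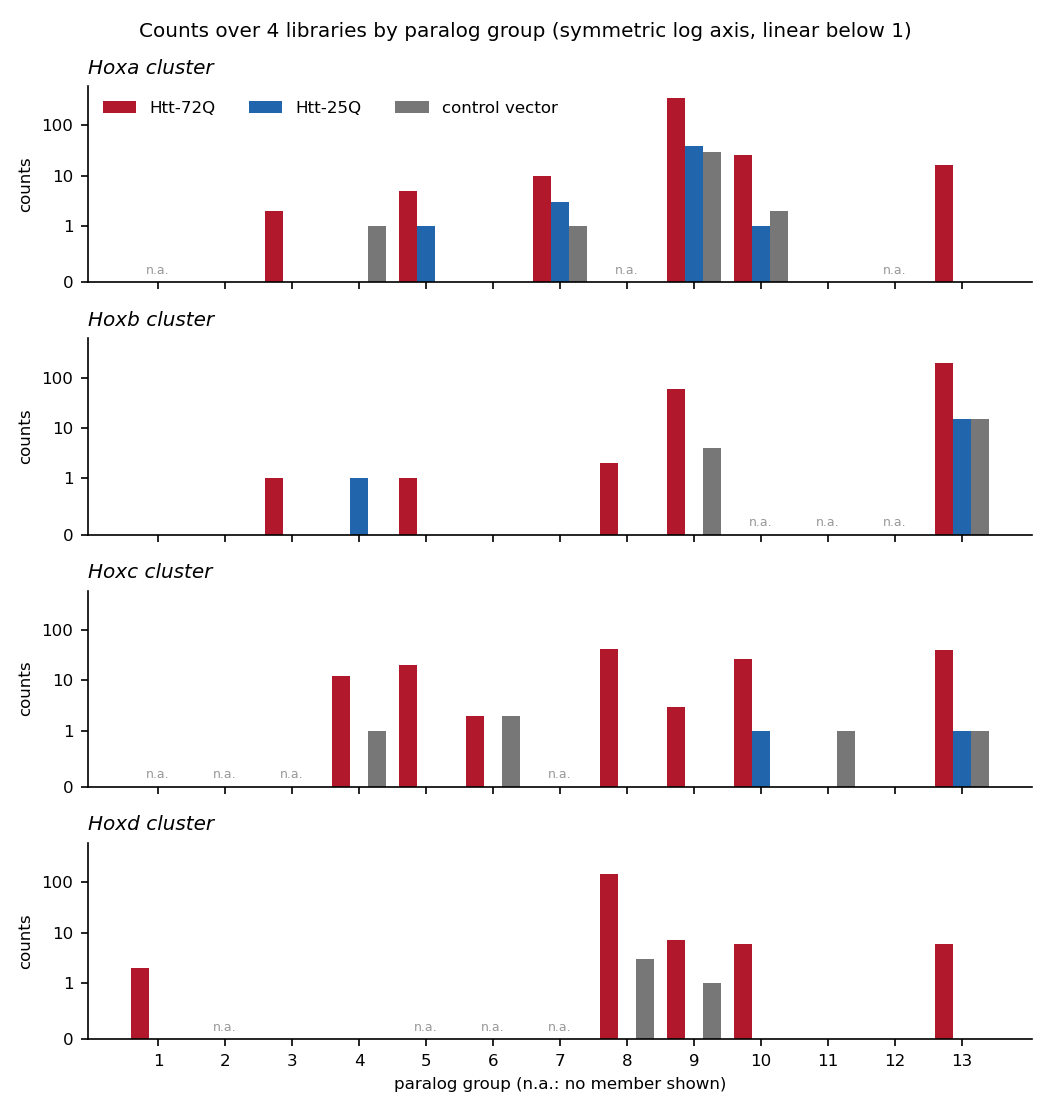
Counts summed over the 4 libraries of each group, by paralog group (x axis, 1 to 13) and cluster (panels), on a y axis that is logarithmic above 1. Counts in Htt-25Q and control vector are mainly those of Hoxa9 (39 and 29) and Hoxb13 (15 and 15), and 5 counts of groups 1 to 3 were found in Htt-72Q.

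Only Hoxd8 and Hoxb13 passed the low-count filter, which asks for about 10 counts in 4 libraries. Both reached it through the Htt-72Q libraries, so the number passing describes the filter and not the family. In the edgeR quasi-likelihood test both were called higher in Htt-72Q (Benjamini-Hochberg adjusted p under 0.05), where 9.44% of the 14707 genes tested were called higher against control vector and 9.07% against Htt-25Q. Nothing is read from these shares for the family, since the filter itself chose genes with counts in Htt-72Q. Per kilobase their mean levels in Htt-72Q were 0.845 RPKM for Hoxd8 and 1.26 RPKM for Hoxb13, above 18.1% and 23.4% of the genes tested.

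Hoxd8, a gene from the middle of the Hoxd cluster, had 23, 30, 42 and 49 counts in Htt-72Q 1 to 4. It had 0 counts in each of the 4 Htt-25Q libraries and 0, 0, 2 and 1 in control vector 1 to 4. Every Htt-72Q library lay above every other library. The mean level was 2.32 ± 0.772 CPM in Htt-72Q and 0.0453 ± 0.053 CPM in the controls (SD, n = 4 each), a log2 fold change of 5.57 ± 0.67 (SE, edgeR adjusted p = 0.00013). The summed counts gave a ratio of 54.5 (exact 95% interval for counting error alone, 18.3 to 267.6). Against Htt-25Q its bound was 67.6-fold, with the 0 counts of Htt-25Q replaced by a limit of 3 counts for the whole group (edgeR adjusted p = 3.95e-05). This bound and those below take the Htt-72Q counts as observed and leave out their counting error.

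Hoxb13, the gene at the tail end of the Hoxb cluster, known from the tail bud, hindgut and prostate, had 22, 31, 19 and 125 counts in Htt-72Q 1 to 4. It had 0, 4, 6 and 5 counts in Htt-25Q and 1, 2, 10 and 2 in control vector. The lowest Htt-72Q library, at 1.44 CPM, lay above the highest of the other libraries, control vector 3 at 0.505 CPM, and Htt-72Q 4 was highest at 6.05 CPM. The mean was 2.78 ± 2.20 CPM in the Htt-72Q libraries, 0.174 ± 0.123 CPM in the Htt-25Q libraries and 0.207 ± 0.204 CPM in the controls (SD, n = 4 each). Its log2 fold change was 4.0 ± 0.73 over Htt-25Q (SE, edgeR adjusted p = 0.0012) and 3.71 ± 0.73 over control vector (edgeR adjusted p = 0.00204). Without Htt-72Q 4 these were 3.28 and 2.99, and both calls held.

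Fitting every gene with at least 1 count allowed 26 of the 38 Hox genes to be tested. In this fit 9 Hox genes were called higher and 0 lower in Htt-72Q against control vector, where 4.34% of the 27365 genes tested were called higher and 7.59% lower. Against Htt-25Q 11 were called higher and 0 lower, with 4.1% of all genes called higher and 7.16% lower. With 61 Hox counts over the control libraries and 62 over the Htt-25Q libraries, a lower call was hardly possible. Moreover, 11 of the 26 genes entered this fit through Htt-72Q counts alone. The absence of lower calls is therefore not read as a result, and the shares of all genes are given for scale only. The 9 genes called against both groups were Hoxd8 and Hoxb13 with Hoxa9, Hoxa13, Hoxb9, Hoxc5, Hoxc8, Hoxc10 and Hoxc13. The genes called against Htt-25Q alone were Hoxa10 and Hoxc4, and whether their 2 comparisons differ was not tested. These comparisons share the Htt-72Q libraries. With a block for preparation, the number that opens the description of each library, the calls against Htt-25Q fell to 4, with 4.36% of all genes called higher in that fit. Preparation 26 holds Htt-72Q 3 and control vector 3 but no Htt-25Q library, and preparation 27 holds Htt-25Q 4 alone. With the block, Htt-72Q 3 thus enters this comparison only by way of control vector 3, and Htt-25Q 4 adds nothing to it. An effect of preparation and the smaller part of these libraries cannot be told apart. The 7 calls lost were those of Hoxa9 (edgeR adjusted p = 0.854), Hoxa10 (0.837), Hoxa13 (0.105), Hoxc4 (0.172), Hoxc5 (0.803), Hoxc8 (0.167) and Hoxc10 (0.179). Against control vector the block ended the call of Hoxc5 (0.0605). Without Htt-72Q 3 the calls were 6 against control vector and 6 against Htt-25Q, with 3.5% and 3.59% of all genes called higher.

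The level in all 4 Htt-72Q libraries lay above that in the 8 other libraries for 6 of the 26 genes: Hoxa13, Hoxb9, Hoxb13, Hoxc8, Hoxc10 and Hoxd8. This held for 4.53% of all genes with a count. The number was 6 to 8 when each Htt-72Q library was left out in turn. A stricter description takes genes without any count in the 8 other libraries and asks for a count in at least 3 of the 4 Htt-72Q libraries. This held for 3 of 23 such Hox genes (13%: Hoxa13, Hoxc8 and Hoxd10) and for 57 of 15171 genes in all (0.376%). With Htt-25Q in the place of Htt-72Q it held for 0 of 13 Hox genes and 0.332% of all genes, and with control vector for 0 of 14 Hox genes and 0.0604% of all genes. For the Hox genes these values of 0 were fixed in advance, and nothing is read from them. The 13 were the 12 genes without a count in any library and Hoxb4. The 14 were the same 12 with Hoxa4 and Hoxc11, and Hoxb4, Hoxa4 and Hoxc11 had a single count each.

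Among the tail-end genes, Hoxb9, which helps to pattern the thorax, had 24, 24, 6 and 6 counts in Htt-72Q 1 to 4. It had none in the 4 Htt-25Q libraries and exactly 1 in each control library. It was called higher in Htt-72Q against both groups, with a log2 fold change of 3.95 ± 0.82 over control vector (SE, edgeR adjusted p = 0.00115). Its bound against Htt-25Q was 28.2-fold (edgeR adjusted p = 2.3e-05). Hoxa13, a gene of the distal limb and hindgut, had 2, 3, 6 and 5 counts in Htt-72Q and none in any other library. Its bounds were 7.51-fold against Htt-25Q and 6.06-fold against control vector (edgeR adjusted p = 0.00807 and 0.0125). With the preparation block the log2 fold change of Hoxa13 against Htt-25Q was 4.90 ± 2.05, against 5.30 ± 1.33 without the block (SE), and the call was lost (edgeR adjusted p = 0.105). Since Hoxa13 had no count in Htt-25Q, the size of these values depends on the small count that the fit adds.

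Hoxc13, a gene of hair follicles and the tail, had 5, 14, 0 and 21 counts in Htt-72Q 1 to 4, a total of 1 count in Htt-25Q and a total of 1 in control vector. It had no count in Htt-72Q 3, in which several other Hox genes were highest. Its log2 fold change was 5.04 ± 1.11 over Htt-25Q and 4.84 ± 1.14 over control vector (SE, edgeR adjusted p = 0.00192 and 0.00365). The ratios of summed counts were 56.3 (exact 95% interval for counting error, 9.55 to 2280) and 45.5 (7.70 to 1840). Hoxc10, which acts in the lumbar spinal cord and hind limb, had 3, 2, 16 and 5 counts in Htt-72Q, 1 count in Htt-25Q and none in control vector. It was called higher against Htt-25Q (log2 fold change 4.68 ± 1.15, SE, edgeR adjusted p = 0.00606), and its bound against control vector was 9.85-fold (edgeR adjusted p = 0.0032). Its call against Htt-25Q was lost without Htt-72Q 3 (adjusted p = 0.0584) and with the preparation block (adjusted p = 0.179). Without Htt-72Q 3 the bound of Hoxc10 against control vector was 4.73-fold.

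**Figure D3:**
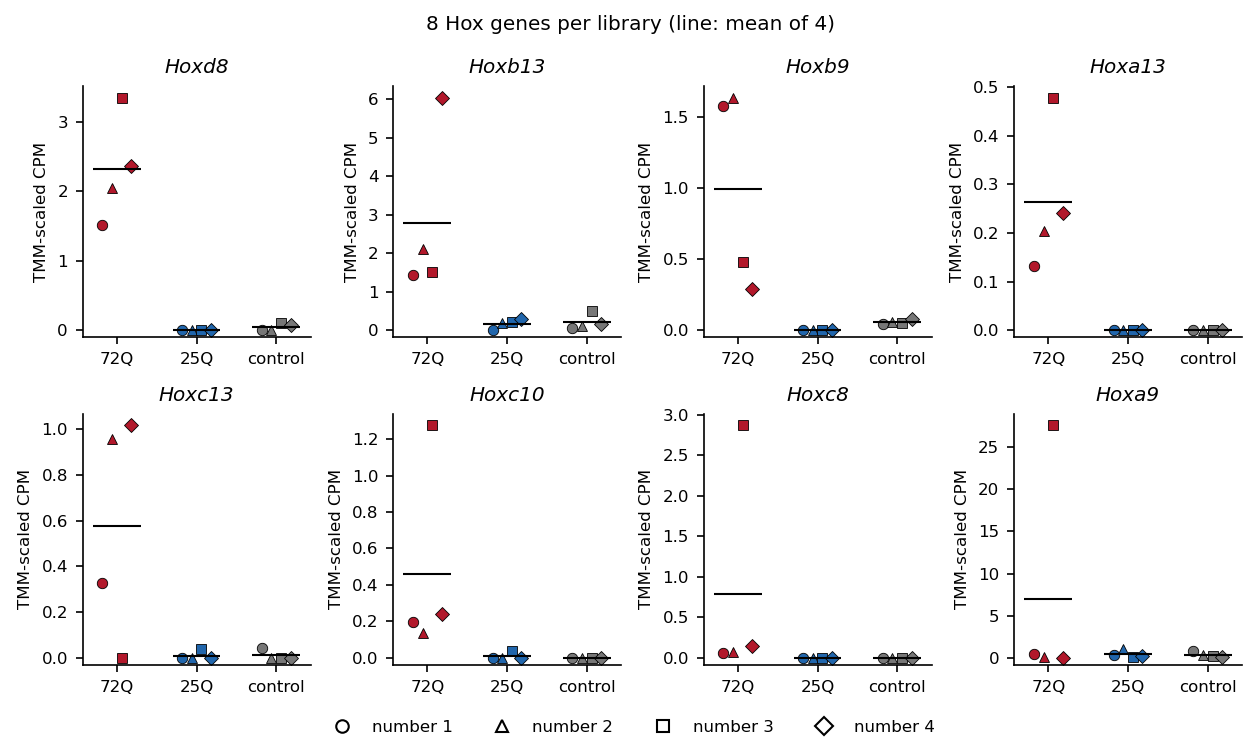
TMM-scaled CPM of 8 Hox genes (panels) in each library, by group on the x axis, with a symbol shape for the number in the library's title and a line at the mean of 4 libraries. All 4 Htt-72Q points lie above the other points for Hoxd8, Hoxb13, Hoxb9, Hoxa13, Hoxc10 and Hoxc8, whereas Hoxa9 is high in Htt-72Q 3 at 27.6 CPM and overlaps elsewhere.

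Library Htt-72Q 3 differed from the others of its group in which Hox genes it held. Hoxa9, a trunk gene that is also active in blood progenitors, had 346 counts there and 7, 2 and 0 in Htt-72Q 1, 2 and 4. It had 8, 22, 4 and 5 counts in Htt-25Q and 18, 6, 4 and 1 in control vector, so 3 of the 4 Htt-72Q libraries overlapped with the other groups. The log2 fold change over all libraries was 3.94 ± 1.02 against Htt-25Q and 4.14 ± 1.06 against control vector (SE, edgeR adjusted p = 0.0086 and 0.00733). Without Htt-72Q 3 the values turned to -1.28 and -1.05 (adjusted p = 0.416 and 0.547), so both calls rest on that library.

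Its neighbour Hoxa10 had 26 counts in Htt-72Q 3, none in the other 3 Htt-72Q libraries, 1 in Htt-25Q and 2 in control vector. Hoxc5 had 19 counts in Htt-72Q 3, 1 in Htt-72Q 4 and none elsewhere. Hoxc8, a thoracic gene, had 36 counts in Htt-72Q 3, 1, 1 and 3 in Htt-72Q 1, 2 and 4, and none in the 8 other libraries. Its bounds were 19.25-fold against Htt-25Q and 15.5-fold against control vector (edgeR adjusted p = 0.00335 and 0.00528). Without Htt-72Q 3 these bounds were 2.93-fold and 2.36-fold, and its log2 fold change, 6.84 against both groups, became 3.96. These log2 values depend on the small count that the fit adds where a group has none. Leaving Htt-72Q 3 out ended the calls of Hoxc8 (adjusted p = 0.108 and 0.14), of Hoxc5 (0.532 and 0.555) and of Hoxa10 against Htt-25Q (0.665). Hoxc4, with 0, 4, 1 and 7 counts in Htt-72Q, none in Htt-25Q and 1 in control vector, was called against Htt-25Q (edgeR adjusted p = 0.0254), a call that was lost when any of Htt-72Q 2, Htt-72Q 4 or the 4 Htt-25Q libraries was left out (0.053 to 0.0917).

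Htt-72Q 3 was the library with the highest summed level of 6 microglia markers, at 24.6 CPM, against 7.09 to 11.6 CPM in the other Htt-72Q libraries, 7.10 to 11.96 CPM in the Htt-25Q libraries and 3.35 to 12.8 CPM in control vector. Aif1 made up 24.2 CPM of that sum, while Csf1r, P2ry12 and Tmem119 were at 0 in Htt-72Q 3. It also had the highest summed level of 6 endothelial markers, at 4.46 CPM against at most 2.95 CPM in any other library, of which Pecam1 made up 3.59 CPM, with Cdh5, Cldn5 and Kdr at 0. The part of these cells in the Hox levels of Htt-72Q 3 was not tested. In bulk RNA, more cells of a type and more RNA per cell cannot be told apart.

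Summed over the 38 genes, the level was 6.17, 8.47, 42.0 and 11.6 CPM in Htt-72Q 1 to 4. It was 0.433, 1.26, 0.524 and 0.626 CPM in Htt-25Q 1 to 4 and 0.969, 0.538, 1.01 and 0.803 CPM in control vector 1 to 4. The groups did not overlap between Htt-72Q and the others, whereas Htt-25Q and control vector did. Without Hoxa9 the sum averaged 10.01 ± 3.80 CPM in the Htt-72Q libraries, 0.259 ± 0.130 CPM in the Htt-25Q libraries and 0.472 ± 0.341 CPM in the controls (SD, n = 4 each). The sum was higher in Htt-72Q than in control vector within each of the 4 preparations that hold both, by 5.21, 7.93, 41.0 and 10.8 CPM, and higher than in Htt-25Q within each of 3 preparations, by 5.74, 7.21 and 11.04 CPM. Since the genes were chosen with results known, the sum is a description without a test.

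By cluster, the Hoxd sum averaged 2.67 ± 0.884 CPM in the Htt-72Q libraries, 0 in Htt-25Q and 0.0654 ± 0.0794 CPM in the controls (SD, n = 4 each). The Hoxb sum averaged 3.83 ± 1.89 CPM in the Htt-72Q libraries, 0.186 ± 0.127 CPM in the Htt-25Q libraries and 0.266 ± 0.203 CPM in control vector, and the Hoxc sum 2.48 ± 2.34, 0.0187 ± 0.0374 and 0.0748 ± 0.0677 CPM. The Hoxc sum was 0.591, 1.64, 5.90 and 1.79 CPM in Htt-72Q 1 to 4, and it averaged 1.34 CPM without Htt-72Q 3. The Hoxa sum was 30.2 CPM in Htt-72Q 3 and 0.657 to 0.726 CPM in the other 3 Htt-72Q libraries. It was 0.225 to 1.02 CPM in the Htt-25Q libraries and 0.241 to 0.793 CPM in control vector, so that Hoxa overlapped between groups outside Htt-72Q 3.

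**Figure D4:**
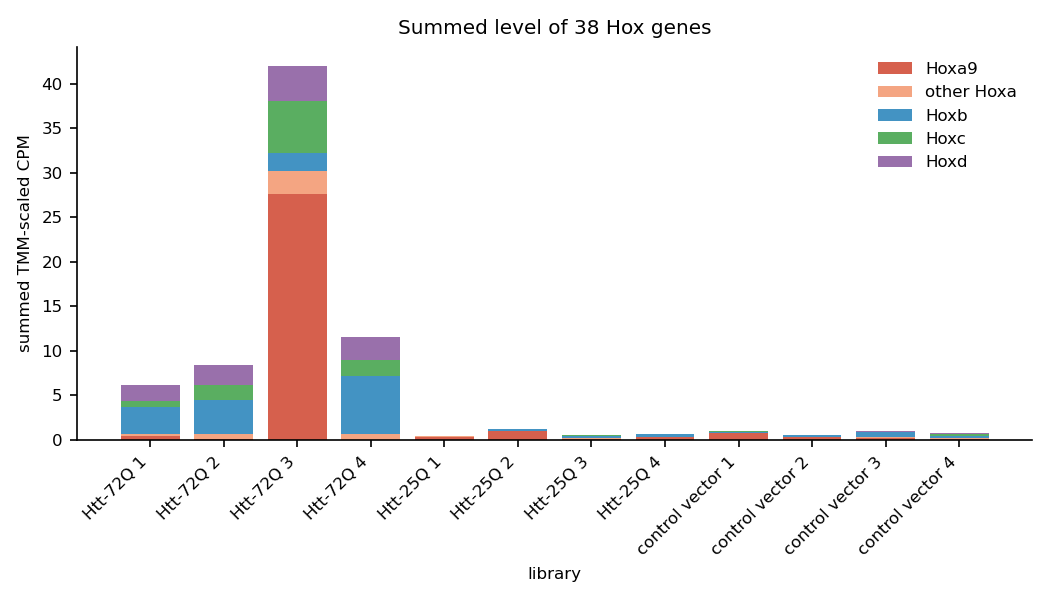
Summed TMM-scaled CPM of the 38 Hox genes in each library (bars from 0), stacked by cluster with Hoxa9 shown apart. The Htt-72Q bars reach 6.17 to 42.0 CPM and the others at most 1.26 CPM, and Hoxa9 makes up 27.6 CPM of the Htt-72Q 3 bar.

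The other 15 genes with a count were called in no comparison, and each had a total of 14 counts or fewer. Among them Hoxd10, a lumbar gene, had 0, 1, 4 and 1 counts in Htt-72Q, and Hoxd9 had 1, 1, 3 and 2, with 1 count in control vector. Hoxd13 had 4, 0, 0 and 2 counts in Htt-72Q and none elsewhere, and Hoxa7 had 1, 3, 0 and 6 in Htt-72Q, 3 over the Htt-25Q libraries and 1 in control vector. Hoxc6 had 2 counts in Htt-72Q 3 and 2 in control vector 4.

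Htt-25Q against control vector asks what the exon 1 protein with a repeat of normal length does. No Hox gene was called by the edgeR quasi-likelihood test, with or without the low-count filter, nor by DESeq2, and 0.0% of all genes were called. At an unadjusted p under 0.05, 2 of the 26 Hox genes differed in the fit without the filter, Hoxd8 (0 counts in Htt-25Q and 3 in control vector) and Hoxb9 (0 and 4), with 483 of 27365 genes in all. Hoxb13 differed by -0.29 ± 0.89 (log2, SE, edgeR adjusted p = 1) and Hoxa9 by 0.20 ± 1.18 (edgeR adjusted p = 1). Hoxa9 was called in this comparison only with a block for preparation in which 27 and 27_1 were merged (2.01, adjusted p = 0.0105), and in that fit 0.599% of all genes were called.

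The genome between the Hox genes was mostly without counts as well. Of 39 other annotated genes that start inside the 4 spans, 5 had a count and 1 was tested, Gm11539, which was not called (edgeR adjusted p = 0.127 against Htt-25Q and 0.624 against control vector). The antisense transcript gene Hoxd3os1 had 9 counts, all in Htt-72Q (edgeR without the filter, adjusted p = 0.0504 against Htt-25Q and 0.068 against control vector). Exons of 9 Hox genes overlap another gene on the same strand, among them Hoxc5 with Hoxc10 and Hoxa9 with Mir196b, and exons of 9 overlap a gene on the opposite strand. The counting's use of strand is not stated in the labels or notes, so reads of such pairs may be shared. Hoxd8, Hoxb13, Hoxb9, Hoxa13, Hoxc8 and Hoxc13 have no such overlap.

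Of the 40 genes tested that lie next to the clusters, 5 on either side of each, 5 were called higher and 4 lower in Htt-72Q against Htt-25Q. Against control vector 5 were called higher and 6 lower, and none was called for Htt-25Q against control vector. These shares are near those of all genes, of which 22.5% and 23.2% were called in the comparisons of Htt-72Q. The strongest rises, chosen after their values were seen, were those of Skap2 beside Hoxa and Igf2bp1 beside Hoxb. Skap2, which encodes a Src kinase adaptor protein, was at 9.65, 6.90, 15.5 and 9.09 CPM in Htt-72Q 1 to 4, at 1.25 to 2.51 CPM in the Htt-25Q libraries and at 1.29 to 2.29 CPM in control vector. Its log2 fold change was 2.54 ± 0.30 against Htt-25Q and 2.35 ± 0.30 against control vector (SE, edgeR adjusted p = 3.83e-05 and 7.03e-05). Igf2bp1, an RNA-binding protein gene of embryonic tissues, averaged 2.14 ± 0.636 CPM in the Htt-72Q libraries, 0.288 ± 0.117 CPM in the Htt-25Q libraries and 0.306 ± 0.162 CPM in the controls (SD, n = 4 each), and its Htt-72Q libraries lay above all others. It rose by 2.85 ± 0.44 and 2.70 ± 0.44 (edgeR adjusted p = 0.000319 and 0.00053). Igf2bp1 also reached the low-count filter through its Htt-72Q libraries. Chn1 beside Hoxd fell by 1.46 on the log2 scale against control vector.

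Genes that act on or with the Hox genes were taken from fixed lists. Of 20 retinoic acid and Cdx regulators 12 were tested, and 2 rose and 2 fell in Htt-72Q against Htt-25Q and likewise against control vector, with a median log2 fold change of 0.17 in both. That is 4 of 12 called, beside 22.5% of all genes against Htt-25Q and 23.2% against control vector. Nothing is read from this share, since 1 of the 4, Aldh1a2, reached the low-count filter through its Htt-72Q libraries. It had 10, 9, 27 and 21 counts in Htt-72Q 1 to 4 and 0 to 3 in each other library. The Cdx genes had no count in any library. Aldh1a2, which makes retinoic acid, was at 0.657, 0.614, 2.15 and 1.02 CPM in Htt-72Q 1 to 4, at 0.0866 to 0.140 CPM in the Htt-25Q libraries and at 0 to 0.0881 CPM in control vector, without overlap. Its log2 fold change was 3.21 ± 0.58 against Htt-25Q and 4.52 ± 0.71 against control vector (SE, edgeR adjusted p = 0.00123 and 0.000371). Cyp26b1, which breaks retinoic acid down, was at 3.15, 1.71, 0.558 and 3.63 CPM in Htt-72Q, at 4.98 to 17.1 CPM in the Htt-25Q libraries and at 7.05 to 17.2 CPM in control vector. It fell by 2.35 ± 0.49 and by 2.16 ± 0.49 (edgeR adjusted p = 0.00316 and 0.00547). The part of these 2 genes in the Hox levels was not tested. The receptor gene Rara fell by 0.68 against Htt-25Q and by 0.87 against control vector, Rarb rose by 0.79 against control vector and Rarg by 1.08 against Htt-25Q. The calls of Rarb, of Rarg and of Rara against Htt-25Q were lost in 6, 4 and 7 of 22 alternative settings.

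**Figure D5:**
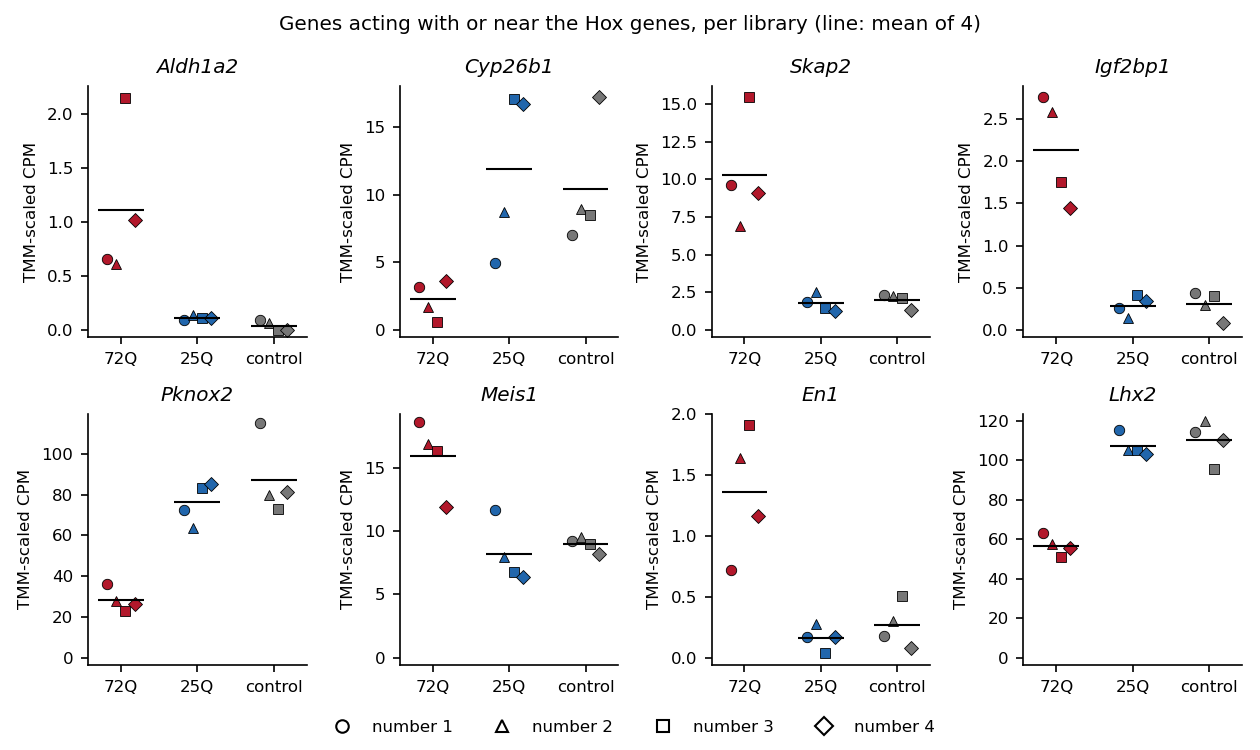
TMM-scaled CPM of 8 genes outside the family (panels) in each library, by group, with a symbol shape for the number in the library's title and a line at the mean of 4 libraries. Aldh1a2, Skap2, Igf2bp1, Meis1 and En1 are highest in Htt-72Q without overlap, and Cyp26b1, Pknox2 and Lhx2 are lowest there.

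The TALE cofactors are abundant in cortical neurons, and all 9 were tested. In Htt-72Q against Htt-25Q 2 rose and 2 fell, and against control vector 1 rose and 2 fell, with medians of -0.03 and -0.02. These are 4 and 3 of 9, beside the same 22.5% and 23.2% of all genes. Pknox2 was at 22.8 to 36.3 CPM in the Htt-72Q libraries, 63.6 to 85.2 CPM in the Htt-25Q libraries and 73.0 to 115 CPM in the controls, and it fell by 1.43 and 1.63 on the log2 scale (edgeR adjusted p = 4.89e-05 and 1.69e-05). Meis1 rose by 0.96 and 0.82 (edgeR adjusted p = 0.00406 and 0.0101). Pknox1 rose by 0.73 against Htt-25Q, a call lost in 5 of 22 alternative settings. No member of these lists was called for Htt-25Q against control vector.

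Of 29 Polycomb complex genes 2 rose and 2 fell against Htt-25Q, and 3 rose and 2 fell against control vector, with medians of 0.07 and 0.06 on the log2 scale. Jarid2, which helps to recruit the complex that methylates histone H3, fell by 0.83 ± 0.18 and 0.78 ± 0.18 (SE, edgeR adjusted p = 0.00429 and 0.00601). Phf1, a partner of the same complex, rose by 0.81 ± 0.26 and 1.25 ± 0.26 (edgeR adjusted p = 0.0366 and 0.00337). Its call against Htt-25Q was lost in 7 of 22 alternative settings. Of 12 trithorax and histone demethylase genes, which counteract Polycomb silencing, 2 rose against Htt-25Q and 1 against control vector. Ash2l rose in both, by 0.60 and 0.68 (edgeR adjusted p = 0.00642 and 0.00281). Counted in either direction, these shares did not exceed the 22.5% against Htt-25Q and 23.2% against control vector of all genes tested. Of all genes 9.07% and 9.44% were called higher. The 2 of 12 against Htt-25Q and the 3 of 29 against control vector lay above these shares. The 2 of 29 against Htt-25Q and the 1 of 12 against control vector lay below them.

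Among 16 other homeobox genes of the extended Hox and ParaHox families 9 were tested, of which En1 reached the low-count filter through its Htt-72Q libraries. En1, a midbrain and hindbrain gene, was at 0.722 to 1.91 CPM in the Htt-72Q libraries, 0.0374 to 0.279 CPM in the Htt-25Q libraries and 0.0803 to 0.505 CPM in control vector, and rose by 3.02 ± 0.56 and 2.27 ± 0.54 (SE, edgeR adjusted p = 0.00149 and 0.0072). En2 rose by 1.87 against control vector (edgeR adjusted p = 0.0138). Dlx1, a gene of forebrain interneurons, fell by 0.88 and 0.61, and the call against control vector was lost in 6 of 22 alternative settings.

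Regional and cell type markers moved with the groups as follows. Of 12 forebrain regional genes 9 were tested. Against Htt-25Q 4 fell and none rose, and against control vector 3 fell and 1 rose, where 13.4% and 13.7% of all genes were called lower. The cortical factor Lhx2 fell by 0.92 and 0.95 on the log2 scale (edgeR adjusted p = 3.94e-05 and 2.74e-05). The summed level of the 12 genes was 136.9 to 154.1 CPM in the Htt-72Q libraries, 224.9 to 260.7 CPM in the Htt-25Q libraries and 218.1 to 233.8 CPM in control vector, without overlap. Of 17 hindbrain and spinal cord regional genes in the files 2 were tested, and their summed level was 9.35 to 13.95 CPM in the Htt-72Q libraries, 8.32 to 19.8 CPM in the Htt-25Q libraries and 9.74 to 19.9 CPM in control vector. The regional genes of the tissues in which Hox genes are normally active thus overlapped between the groups.

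Of 11 cortical neuron markers 9 fell against Htt-25Q, 9 fell against control vector and none rose, beside the same 13.4% and 13.7% of all genes called lower. Their summed level was 4095 to 4261 CPM in the Htt-72Q libraries, 5662 to 6440 CPM in the Htt-25Q libraries and 6013 to 7261 CPM in control vector. Of 12 markers of fibroblasts, meninges and mural cells 7 were tested. Twist1 rose, at 5.91 to 7.5 CPM in the Htt-72Q libraries, 0.390 to 0.599 CPM in the Htt-25Q libraries and 0.132 to 0.964 CPM in control vector, and Postn fell, at 1.40 to 2.5, 7.52 to 20.8 and 8.76 to 22.8 CPM. The defining fibroblast gene Col1a1 was at no more than 0.573 CPM in any library, and the summed level of the list was 211 to 382 CPM in the Htt-72Q libraries, 207.5 to 328 CPM in the Htt-25Q libraries and 237 to 439 CPM in control vector. Most of that sum was Pdgfra, a gene also used by oligodendrocyte precursors, at 185 to 354 CPM in the Htt-72Q libraries, 181 to 298 CPM in the Htt-25Q libraries and 207 to 388 CPM in control vector. Tbx18, a mural cell and meningeal gene, had 1, 10, 6 and 27 counts in Htt-72Q 1 to 4, 0, 0, 3 and 1 in Htt-25Q and 4, 0, 0 and 3 in control vector. The astrocyte sum was 1658 to 2053 CPM in the Htt-72Q libraries, 1857 to 2126 CPM in the Htt-25Q libraries and 1819 to 2605 CPM in control vector, and the oligodendrocyte lineage sum was 279.9 to 354 CPM, 319 to 339.5 CPM and 302 to 406 CPM. None of the 6 astrocyte markers was called in any comparison, nor were Aif1 and Pecam1, the single microglia and the single endothelial marker that passed the low-count filter. The other 5 of each of those lists were not tested. The part of the fall in neuronal markers in the Hox levels was not tested.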

How the data were processed

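RNA was measured in 12 libraries, 3 groups of 4. Per the submitters' processing notes, the tools were STAR 2.0.4b, Subread and featureCounts 1.45 with build GRCm38, and they state neither the strand setting nor how multi-mapped reads were treated. The deposited files give whole-number read counts per gene (41388 genes). The deposited CPM (per library total) and RPKM (CPM per kilobase) follow from the counts, so the authors' counts alone were tested. Lanes of the same library were merged before counting, per the labels.

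The counts were tested with the edgeR 4.0.16 quasi-likelihood test in R 4.3.3, with TMM scaling, filterByExpr (minimum count 10) and the 12 libraries in 1 fit (9 residual degrees of freedom, 14707 genes). P-values are two-sided with Benjamini-Hochberg adjustment over all genes tested, and genes under 0.05 are called. Because most Hox genes fall under the filter, the same fit was repeated on the 27365 genes with at least 1 count in any library. Genes at 0 in a whole group got a bound from 3 counts over that group. The test was checked on simulated counts, with changes planted only in genes of higher counts than most Hox genes have. That check does not cover Hox genes with few counts or groups at 0. The intervals (95%, exact) cover counting error only. The bounds cover that of the group at 0 alone and take the counts of the other group as observed.

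Positions and overlaps come from the GENCODE annotation of GRCm38 and promoter sequences from RefSeq. Every Hox gene is accounted for, and those called or with 50 counts or more get values per library. Of each other list at most 4 called genes with the smallest p are named, or a subset of these. Of the genes beside the clusters, those named were chosen after their values were seen. The members and lists were chosen with earlier results of these data known. One gene of the family and some genes of the lists are not reported here.

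Libraries that share a preparation number (22, 24, 26, 27, 27_1, from their descriptions) had residuals that correlated across genes in 10 of 10 pairs (r 0.113 to 0.501, median 0.282, against a median of -0.0724 in 38 other pairs, all pairs being of libraries from different groups), so the number was taken to pair libraries and was fitted as a block among the alternatives. The 38 other pairs ran from -0.516 to 0.463, so they overlapped with the 10. Residuals were taken from group means, which pulls the other pairs down where pairs of the same preparation correlate. No 2 libraries were duplicates. The alternatives were DESeq2 1.42.0, other scalings and filters, fits of 2 groups, blocks, 1 surrogate variable (sva 3.50.0), and fits without each library in turn.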

Additional observations from a re-analysis of the deposited data

Results flagged for a closer look

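In 8 of 29 groups of 4 values with more than 3 counts, the highest library stood further from the others than Dixon's 95% limit allows. Chance flags about 1 in 20 groups, and the values share libraries. Library Htt-72Q 3 was that library in 7 of them. Hoxa9 was at 27.6 CPM in it and at 0 to 0.46 CPM in the other Htt-72Q libraries, and Hoxa10 was at 2.07 CPM and 0 in the others. Hoxc5 was at 1.51 CPM against 0 to 0.0484 CPM, Hoxc8 at 2.87 CPM against 0.0657 to 0.145 CPM and Hoxc10 at 1.28 CPM against 0.137 to 0.242 CPM. The sum over the 38 Hox genes was 42.0 CPM against 6.17 to 11.6 CPM, and the Hoxa sum was 30.2 CPM against 0.657 to 0.726 CPM. Hoxb13 was highest in Htt-72Q 4, at 6.05 CPM against 1.44 to 2.12 CPM in the other 3.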

How the results depend on the processing

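Hoxd8 and Hoxb13 kept their direction and their call in Htt-72Q against Htt-25Q and against control vector in all 22 alternative settings (log2 fold changes of 8.12 to 8.61 and 3.28 to 4.29 against Htt-25Q, 5.09 to 6.44 and 2.99 to 4.73 against control vector). Hoxd8 had no count in Htt-25Q, so its values against Htt-25Q depend on the small count that the fit adds. Their narrow range does not measure the size of the change, for which the bound is 67.6-fold. Hoxb9 and Hoxc13 kept their direction and call in 20 of 20. With the filter 2 Hox genes were called in both comparisons (2 to 3 without each library), and without it 11 against Htt-25Q and 9 against control vector, since 26 genes then entered the test. Against Htt-25Q the 11 became 5 with DESeq2, which gave no adjusted p for Hoxa9, Hoxa13, Hoxc8 and Hoxc4, 4 with the replicate block by preparation, 6 with the block that merges 27 and 27_1, and 6 to 12 without each library in turn (6 without Htt-72Q 3). Against control vector the range was 6 to 10. Hoxa9 turned to -0.53 against Htt-25Q and -0.84 against control vector with a surrogate variable, and Hoxa10 to -0.64 against Htt-25Q. Without each library in turn Hoxa9 ranged from -1.28 to 4.69 and from -1.05 to 4.90, and Hoxa10 from -1.45 to 6.19. For Htt-25Q against control vector the uncalled values crossed 0: Hoxb13 ranged from -0.68 to 0.73 and Hoxa9 from -0.59 to 0.99 without each library, and Hoxa9 was at -0.31 with a surrogate variable. The block that merges 27 and 27_1 called 1 Hox gene there, Hoxa9 (2.01), with 164 of 27365 genes called in all. The summed level without Hoxa9 was 0.259 CPM in the Htt-25Q libraries and 0.472 CPM in the controls. The cause of these changes was not tested. Depth limits most members, of which 22 of 26 had fewer than 50 counts in all.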
